A study of Mus musculus with 14 samples.

Results

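The 9 genes described here encode fatty acid desaturases and elongases of the mouse: Scd1, Scd2, Fads1, Fads2, Fads3, Elovl1, Elovl2, Elovl3 and Elovl5. They were taken by symbol from a table of 22850 gene rows, and each symbol stood in 1 row, so all 9 were found and all 9 passed the filter on low rows. Liver RNA had been sequenced in 14 libraries from C57BL/6N mice placed at 7 weeks of age on 1 of 3 diets. In the HFWD+sugar group (5 livers) the food was a Western diet in which fat gave 40% of the energy, and the drinking water held 42 g of sugar per litre, of which 55% was fructose and 45% sucrose. The HFWD group (5 livers) had that food with no sugar added to its water, and in the chow group (4 livers) fat gave 12% of the energy. HFWD stands for high-fat Western diet, whose fat sources included lard, butterfat and a vegetable shortening. Sex and time on the diet are not analysed here. Each library has a number of its own in the labels, but no label says in so many words that it is a different animal, so p-values cover the spread between libraries, whatever its source. The series asks what liquid sugar adds to a diet model of fatty liver.

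Desaturases place double bonds in fatty acyl chains, and elongases of the ELOVL family catalyse the first, rate-limiting step that lengthens a chain by one pair of carbons. SCD enzymes are delta-9 desaturases that make oleic and palmitoleic acid from saturated fatty acids. FADS2 (delta-6) and FADS1 (delta-5) alternate with ELOVL5 and ELOVL2 to turn the essential fatty acids of plants into arachidonic and docosahexaenoic acid. In liver these genes are known targets of the transcription factor SREBP-1c and of the oxysterol receptor LXR, and dietary polyunsaturated fatty acids are known to lower several of them.

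Values are the authors' normalized expression values, here called units, on a linear scale whose lowest value is 1. In each library 1 read was worth 2.47 to 6.85 units, judged from the steps between low values, and the library totals came to the equivalent of 3.77 M to 9.34 M reads within the listed genes (median 8.36 M). Chow 4 was the shallowest. The hepatocyte markers were present (10 of 10 were in the table, none at the lowest value throughout). Their summed levels were 17126 to 26114 units in HFWD+sugar livers, 15199 to 23347 in HFWD livers and 19783 to 25130 in chow livers. The highest of these rows, Apob, averaged 6922 units and Alb 3036, while the row of the lymphocyte marker Cd8a averaged 15488. Neutrophil markers summed to no more than 5.65 units in any liver. Of 6 adipocyte markers, Retn was at the lowest value in all 14 livers, Lep and Plin1 in 13 and Adipoq in 12. The other adipocyte markers, Cfd and Fabp4, averaged 788 and 35.7 units. Differences between diets were tested with limma on log2(value + 1) over the 14770 rows that stood above the lowest value in at least 4 libraries, with Benjamini-Hochberg adjustment over all of them. The words rose, fell and passed refer to an adjusted p under 0.05 in that test. Intervals of log2 differences are 95% intervals. Both Western diets were compared with the same 4 chow livers, so these comparisons are not independent.

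A symbol here names a row of the table, and the row's level is not always that known of the gene. Scd1 is known as the main delta-9 desaturase of mouse liver and Scd2 as that of brain. Yet the row labelled Scd2 (ENSMUSG00000025203, mm9, chromosome 19, 44368166 to 44381354, plus strand) was the highest of all 22850 rows, with a mean of 715423 units over the 14 livers. The row labelled Scd1 (ENSMUSG00000037071, chromosome 19, 44468941 to 44482199, minus strand), 87.6 kb away on the opposite strand, averaged 8239 units and ranked 481. The highest opposite-strand row within 200 kb stood above the member's own row for several members. It was 159 times as high for Elovl3 (Pitx3), 103 times for Fads1 (Best1) and 86.8 times for Scd1 (Scd2). For Elovl2 (Sycp2l) it was 7.63 times as high, for Elovl5 (Fbxo9) 6.29 times and for Fads2 (Fads3) 2.11 times. Whether reads of one gene were entered in the row of another was not tested, and the strand setting of the count is not given in the sources used here. Results below are therefore given for the named rows, with those of the opposite-strand rows beside them. In whole liver, fewer cells of a type and less RNA per cell cannot be told apart.

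**Figure D1:**
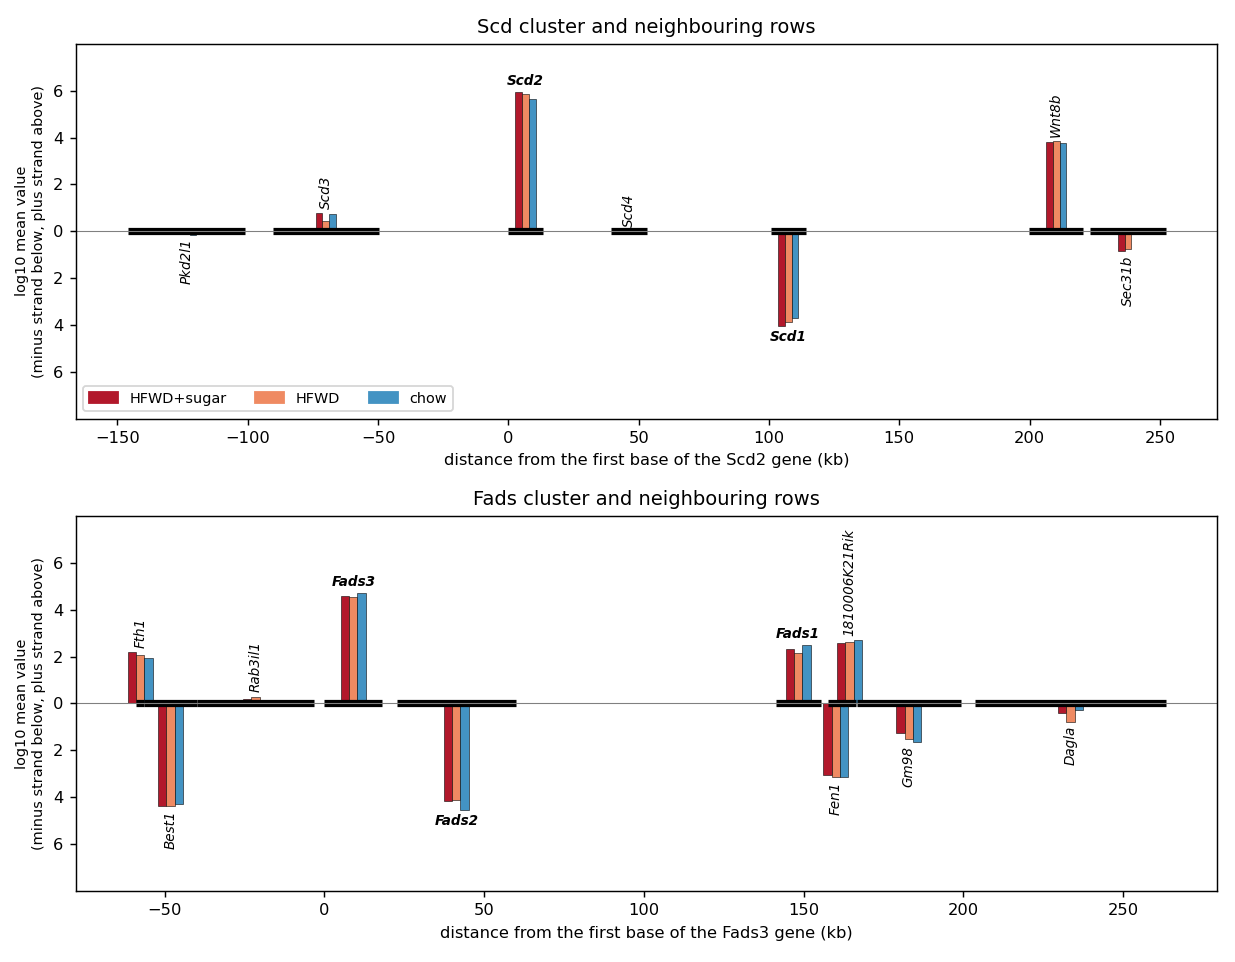
Mean levels of the rows around the Scd cluster (top) and the Fads cluster (bottom) on chromosome 19, on a log10 scale that starts at a value of 1, with plus-strand rows above and minus-strand rows below the line, in HFWD+sugar, HFWD and chow livers; black bars show the extent of each gene in kb from the first base of Scd2 or Fads3. The row of Scd2 averaged 897545, 731246 and 467991 units on the 3 diets, and the Fads3 and Fads2 rows were the highest of their cluster with Best1.

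Against chow, 7 of the 9 rows passed on HFWD+sugar, 4 higher and 3 lower, where 9.05% of all 14770 rows passed (5.67% higher and 3.38% lower). On HFWD 4 of the 9 passed, 2 higher and 2 lower, where 3.38% of all rows passed (2.44% higher and 0.934% lower). Groups did not overlap for 5 of the 9 rows in each of these comparisons, against 9.71% and 5.84% of all rows. The median log2 difference of the 9 was 0.86 on HFWD+sugar and -0.21 on HFWD, beside 0.12 and 0.04 over all rows. The count of 7 was 3 without HFWD+sugar 1, HFWD+sugar 4, chow 1 or chow 3, and 4 without HFWD+sugar 2 or chow 4. The count of 4 was 2 without chow 1. Without both chow 2 and chow 4, the libraries with the lowest array weights, the counts were 5 and 5. Centring each library on its median moved the median of all rows by -0.21 on HFWD+sugar and -0.07 on HFWD; 1571 rows then passed on HFWD+sugar, 420 higher and 1151 lower, and the members that passed were 5 and 3.

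Both delta-9 desaturase rows rose on both Western diets. The Scd1 row had 10938, 11275, 9928, 13288 and 10377 units in the HFWD+sugar livers, 9234, 8611, 7292, 7527 and 6227 in the HFWD livers, and 4582, 6445, 5189 and 4429 in the chow livers. Every HFWD+sugar liver lay above every HFWD liver and every chow liver, while the lowest HFWD liver lay just under the highest chow liver. It rose 2.17-fold on HFWD+sugar against chow (log2 difference 1.12, SE 0.13, adjusted p = 3.62e-05) and 1.51-fold on HFWD against chow (log2 difference 0.59, SE 0.13, adjusted p = 0.0145). The HFWD call ended without chow 1 (adjusted p = 0.0546), whereas the HFWD+sugar call held whichever of the 14 livers was left out (adjusted p from 1.2e-05 to 0.000344). Here and below, leaving out a liver of the diet not compared keeps the log2 difference as it is. It can move only the adjusted p, so it does not ask whether the difference rests on 1 liver. The HFWD call also ended with no filter on low rows (adjusted p = 0.0619), without a variance trend (adjusted p = 0.0751) and with only these diets fitted (adjusted p = 0.0501).

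The Scd2 row had 870857, 905050, 1016008, 852012 and 843796 units in the HFWD+sugar livers, 836647, 874371, 678974, 607957 and 658279 in the HFWD livers, and 403223, 532165, 537797 and 398780 in the chow livers. All 10 Western diet livers lay above the 4 chow livers, and the 2 Western diets overlapped. It held 3.98% ± 0.161 of all units (SD, n = 5) on HFWD+sugar, 3.06% ± 0.447 (SD, n = 5) on HFWD and 1.95% ± 0.354 (SD, n = 4) on chow. The row rose 1.93-fold on HFWD+sugar (log2 difference 0.95, SE 0.16, adjusted p = 0.00136) and 1.56-fold on HFWD (log2 difference 0.64, SE 0.16, adjusted p = 0.028). The HFWD call ended without chow 1, HFWD 1, HFWD 2 or HFWD 3 (adjusted p = 0.0992, 0.0813, 0.0756 and 0.0503). With no filter on low rows neither call held (adjusted p = 0.337 on HFWD+sugar and 0.777 on HFWD). With each library centred on its median neither held either (adjusted p = 0.0773 and 0.326). The HFWD call also ended with quantile normalization (adjusted p = 0.0592) and with only these diets fitted (adjusted p = 0.106).

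The Scd1 row stood at 1.25% ± 0.207 of the Scd2 row on HFWD+sugar (SD, n = 5), 1.07% ± 0.114 on HFWD (SD, n = 5) and 1.11% ± 0.103 on chow (SD, n = 4). The lowest and highest shares were 0.977% and 1.56% on HFWD+sugar, 0.946% and 1.24% on HFWD and 0.965% and 1.21% on chow, so the 3 diets overlapped. Of the further delta-9 desaturases of the cluster, Scd4 was at the lowest value of 1 in all 14 livers, and Scd3 averaged 5.97 units on HFWD+sugar, 2.79 on HFWD and 5.72 on chow. The adipocyte marker list, a tissue in which Scd1 is abundant, had 2 tested members of 6, and one of them, Cfd, rose on both diets (823 ± 48.2, 908 ± 103 and 595 ± 161 units on HFWD+sugar, HFWD and chow; SD, n = 5, 5 and 4; adjusted p = 0.0331 and 0.016), while Adipoq was at the lowest value in 12 of the 14 livers. Its part in the Scd result was not tested.

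**Figure D2:**
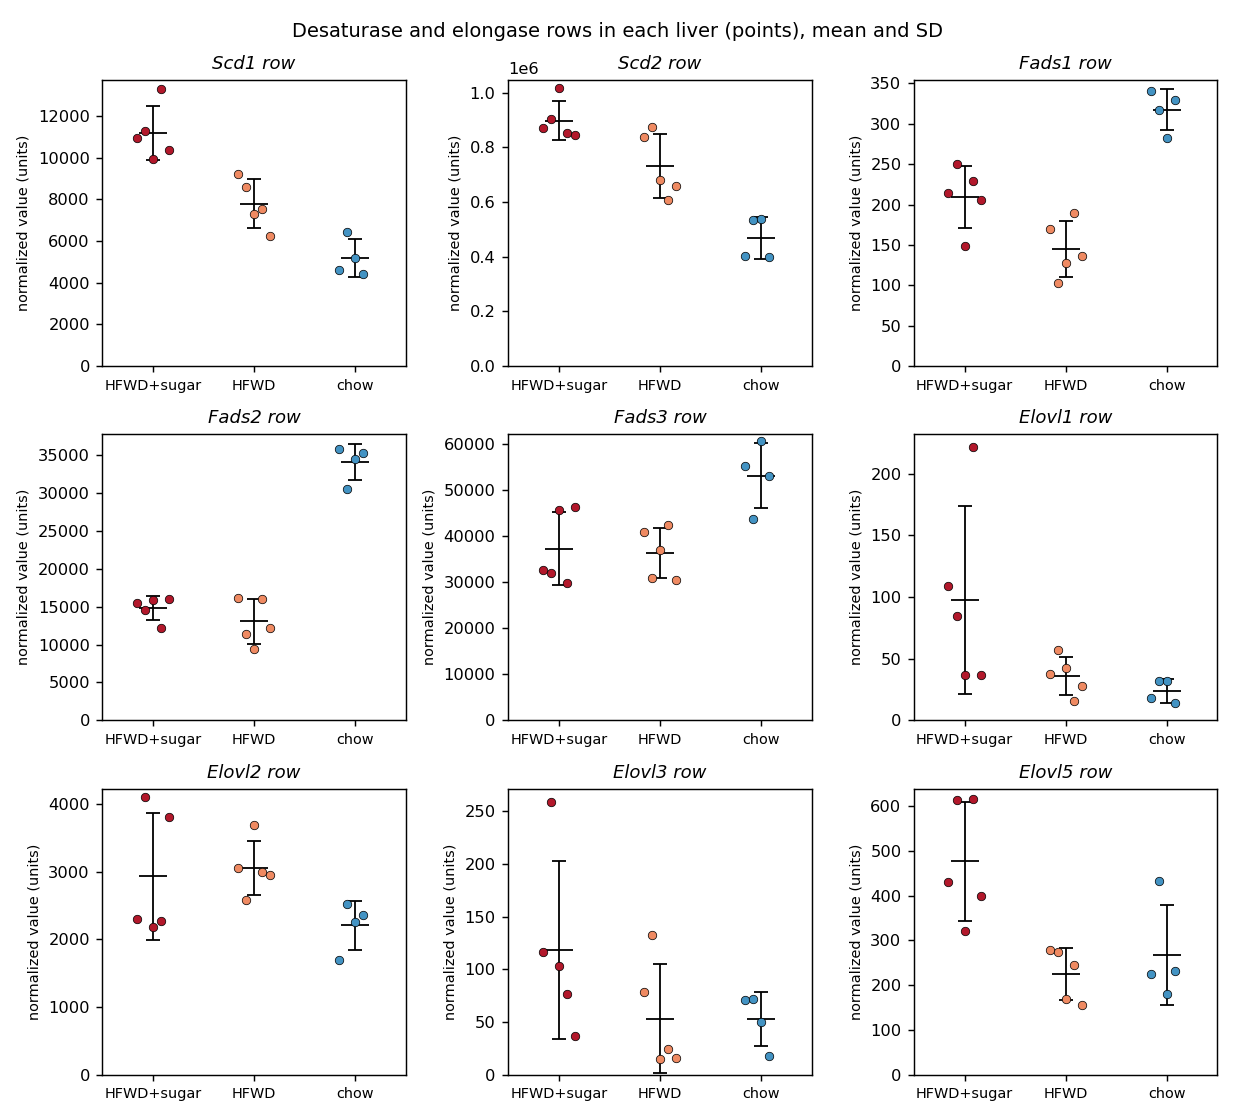
Normalized values (units, axes starting at 0) of the 9 rows in each HFWD+sugar, HFWD and chow liver, with the group mean and SD as bars. The Scd1 and Scd2 rows were highest on HFWD+sugar and lowest on chow, and the Fads1 and Fads2 rows were highest on chow, with no Western diet liver reaching the lowest chow liver.

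The rows of the FADS family went the other way, although Fads3 did not pass on HFWD. Fads1, Fads2 and Fads3 lie beside each other on chromosome 19 (mm9: Fads3, ENSMUSG00000024664, at 10116038 to 10134161 on the plus strand, Fads2, ENSMUSG00000024665, at 10138654 to 10175993 on the minus strand, Fads1, ENSMUSG00000010663, at 10257378 to 10271360 on the plus strand). FADS3 is a member of the family that acts on sphingoid bases. Upstream sequence was at hand for 5 of the 9 members. The 250 bases before the start of Fads2, Fads3 and Elovl5 are printed 5′ to 3′ (RefSeq, build GRCm38.p6, not the mm9 build of the table). The Fads2 row fell on both Western diets, the Fads3 row fell on HFWD+sugar only, and the Elovl5 row rose on HFWD+sugar. Capitals mark the GC box GGGCGG bound by SP1 and the CCAAT box bound by NF-Y, a known partner of SREBP, on either strand.
Fads2, chr19:10101504-10101753, minus strand: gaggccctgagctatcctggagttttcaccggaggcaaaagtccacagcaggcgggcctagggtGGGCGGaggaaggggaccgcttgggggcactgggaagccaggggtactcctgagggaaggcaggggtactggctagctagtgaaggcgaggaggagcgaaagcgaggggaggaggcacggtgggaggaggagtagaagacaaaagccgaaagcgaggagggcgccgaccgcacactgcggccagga
Fads3, chr19:10041298-10041547, plus strand: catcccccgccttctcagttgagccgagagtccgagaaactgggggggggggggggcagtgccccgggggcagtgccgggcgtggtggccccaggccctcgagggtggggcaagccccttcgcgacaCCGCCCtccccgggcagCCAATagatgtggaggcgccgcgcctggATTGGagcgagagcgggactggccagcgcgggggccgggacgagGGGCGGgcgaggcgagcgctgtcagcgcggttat
Elovl5, chr9:77917115-77917364, plus strand: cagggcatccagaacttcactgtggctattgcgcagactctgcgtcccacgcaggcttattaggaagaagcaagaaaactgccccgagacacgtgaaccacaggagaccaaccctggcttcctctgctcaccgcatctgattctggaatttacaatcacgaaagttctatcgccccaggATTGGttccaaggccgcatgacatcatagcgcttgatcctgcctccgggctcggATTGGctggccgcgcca
The Fads2 window held 1 GC box and no CCAAT box, the Fads3 window held 2 of each, and the Elovl5 window held 2 CCAAT boxes and no GC box. No match overlapped another in these 3 windows. Elovl1, whose row also rose on HFWD+sugar, had 2 start sites, not printed. The first held 5 GC boxes and 1 CCAAT box, the second 2 GC boxes and 0 CCAAT boxes. Elovl2, whose row did not pass, held 5 GC boxes at start site 1 and 0 at start site 2, with 0 CCAAT boxes at either. Over 32851 promoter windows of that length 33.8% held CCAAT and 32.7% held GGGCGG, so neither is rare. The classical sterol regulatory element, searched as 1 fixed word of 10 letters on both strands, was in none of the 3 windows (0.0731% of all windows held it), which says only that these letters are not there.

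Fads2 had the deepest fall of the 9 rows. It stood at 15496, 14626, 15945, 12200 and 16085 units in the HFWD+sugar livers, at 16208, 11409, 9431, 16037 and 12216 in the HFWD livers, and at 35784, 30605, 34533 and 35335 in the chow livers. Every one of the 10 Western diet livers lay far below the lowest chow liver. The row fell 2.30-fold on HFWD+sugar (log2 difference -1.20, SE 0.14, adjusted p = 4.72e-05) and 2.66-fold on HFWD (log2 difference -1.41, SE 0.14, adjusted p = 1.05e-05). Both calls held without any 1 liver (adjusted p from 1.2e-05 to 0.000394, and from 1.08e-05 to 0.000101).

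Fads1 was a low row, equivalent to 33.9 reads in its lowest HFWD liver. It had 214, 250, 149, 229 and 205 units in the HFWD+sugar livers, 169, 103, 127, 189 and 136 in the HFWD livers, and 341, 317, 282 and 329 in the chow livers. No Western diet liver reached the lowest chow liver, and the 2 Western diets overlapped. It fell 2.23-fold on HFWD (log2 difference -1.16, SE 0.18, adjusted p = 0.00149), which held without any 1 liver (adjusted p from 0.000857 to 0.00817). On HFWD+sugar it fell 1.53-fold (log2 difference -0.62, SE 0.18, adjusted p = 0.0448). That call ended on leaving out HFWD+sugar 1, 3, 4 or 5 (adjusted p = 0.0721, 0.0833, 0.0716 and 0.0803), HFWD 3 or 5 (adjusted p = 0.0513 and 0.0519), or any of chow 1 to 4 (adjusted p = 0.103, 0.0641, 0.0692 and 0.0664). It ended too with no filter (adjusted p = 0.0928), without a trend (adjusted p = 0.0754) and without chow 2 and 4 together (adjusted p = 0.129).

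Fads3 had the smallest log2 differences of the 3. It had 32684, 32024, 45615, 29872 and 46306 units in the HFWD+sugar livers, 40848, 31015, 37094, 42361 and 30505 in the HFWD livers, and 55260, 43718, 60601 and 53039 in the chow livers. HFWD+sugar 3 and 5 lay above chow 2, so these groups overlapped, while all HFWD livers lay below all chow livers. The row fell 1.44-fold on HFWD+sugar (log2 difference -0.53, SE 0.15, adjusted p = 0.0372), a call that ended without HFWD+sugar 1, 2 or 4 (adjusted p = 0.0816, 0.0864 and 0.104) or chow 1 or 3 (adjusted p = 0.0835 and 0.115). It was lost as well with no filter (adjusted p = 0.114), quantile normalization (adjusted p = 0.0658), no trend (adjusted p = 0.0928) and only these diets fitted (adjusted p = 0.0722). On HFWD the log2 difference was -0.55 (SE 0.15), just short of the threshold (adjusted p = 0.0523). The row passed there on leaving out HFWD+sugar 3 (adjusted p = 0.0445), HFWD+sugar 5 (adjusted p = 0.0457) or chow 2 (adjusted p = 0.0284). Quantile normalization (adjusted p = 0.028), array weights (adjusted p = 0.0184) and leaving out both chow 2 and 4 (adjusted p = 0.0302) also made it pass. Under the other alternatives it did not. HFWD+sugar livers take no part in this log2 difference, which did not change without them.

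The proportion between the 2 neighbours changed with the diet. The Fads2 row was 40.7% ± 5.88 of the Fads3 row on HFWD+sugar (SD, n = 5), 36.0% ± 6.04 on HFWD (SD, n = 5) and 64.6% ± 5.52 on chow (SD, n = 4). Its highest values were 47.4% and 40.0% on HFWD+sugar and HFWD, below the lowest chow liver at 57.0%, a description with no test. Per kb of exon (1.508 kb for Fads2, 3.269 kb for Fads3 and 3.456 kb for Fads1 in the mm9 annotation), the levels of Fads2, Fads3 and Fads1 were 9861, 11410 and 60.6 units on HFWD+sugar, 8661, 11124 and 41.9 on HFWD, and 22589, 16260 and 91.8 on chow. The highest opposite-strand row within 200 kb of Fads1 and of Fads3 was Best1, a chloride channel gene, and it did not pass in either comparison (log2 difference 0.30, adjusted p = 0.102 on HFWD+sugar, and 0.25, adjusted p = 0.282 on HFWD). Fen1, the opposite-strand row 2.26 kb from Fads1, did not pass either (log2 difference -0.24, adjusted p = 0.304, and 0.02, adjusted p = 0.968). Fth1, the ferritin heavy chain gene known for high expression in liver, lies next to Best1 on the other strand, and its row averaged 159, 114 and 87.3 units on HFWD+sugar, HFWD and chow, where the Best1 row averaged 23824, 23007 and 19540.

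**Figure D3:**
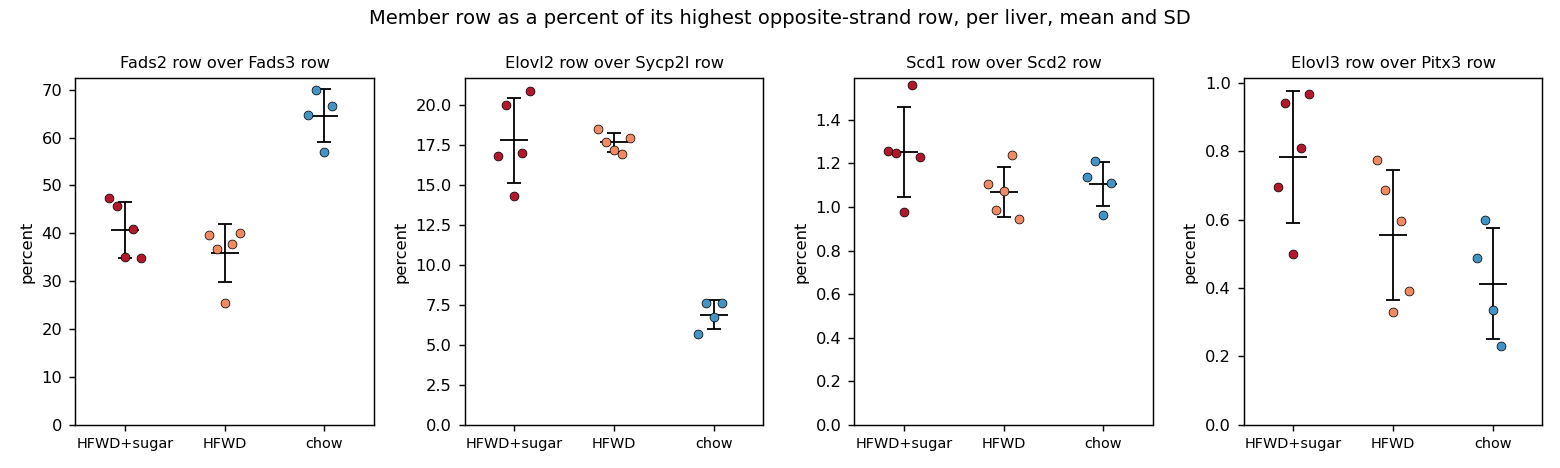
The member row as a percent of its highest opposite-strand row in each HFWD+sugar, HFWD and chow liver, with mean and SD. For Fads2 over Fads3 and Elovl2 over Sycp2l no Western diet liver overlapped the chow livers, while Scd1 over Scd2 stayed between 0.946% and 1.56% in all 14.

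Of the 4 elongase rows, none passed on HFWD, and Elovl1 and Elovl5 rose on HFWD+sugar. Elovl5, which lengthens the products of the delta-6 step, lies on chromosome 9 (ENSMUSG00000032349, 77765171 to 77832326, plus strand). Its row had 431, 613, 322, 615 and 398 units in the HFWD+sugar livers, 278, 275, 170, 246 and 156 in the HFWD livers, and 226, 432, 181 and 232 in the chow livers. The HFWD+sugar livers all lay above the HFWD livers, and chow 2 lay above 3 of them. The row rose 1.82-fold on HFWD+sugar against chow (log2 difference 0.86, SE 0.26, adjusted p = 0.0438), and on HFWD the log2 difference was -0.21 (SE 0.26, adjusted p = 0.757), which turned to 0.04 without chow 2. The call was lost on leaving out HFWD+sugar 1, 2, 4 or 5 (adjusted p = 0.0682, 0.101, 0.117 and 0.0599), HFWD 4 (adjusted p = 0.0534) or chow 1, 3 or 4 (adjusted p = 0.101, 0.142 and 0.071), and with each library centred on its median (adjusted p = 0.0591). No filter (adjusted p = 0.138), quantile normalization (adjusted p = 0.065), no trend (adjusted p = 0.0951) and only these diets fitted (adjusted p = 0.0675) ended it too. The Fbxo9 row on the opposite strand, 97.0 kb away, did not pass (log2 difference 0.07, adjusted p = 0.714 on HFWD+sugar).

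Elovl1, which makes very-long-chain saturated and monounsaturated fatty acids for sphingolipids, lies on chromosome 4 (ENSMUSG00000006390, 118100698 to 118105558, plus strand) and was a very low row. It had 109, 84.6, 36.5, 222 and 36.5 units in the HFWD+sugar livers, 37.4, 57.4, 42.5, 16.1 and 27.8 in the HFWD livers, and 17.95, 31.8, 31.7 and 13.7 in the chow livers. The chow values were equivalent to between 2 and 12 reads, and all HFWD+sugar livers lay above them, HFWD+sugar 4 highest. It rose 3.35-fold on HFWD+sugar (log2 difference 1.74, SE 0.49, adjusted p = 0.037). The call ended without HFWD+sugar 1, 2 or 4 (adjusted p = 0.08, 0.072 and 0.0986) or chow 1, 3 or 4 (adjusted p = 0.0864, 0.0552 and 0.0735). Other settings that ended it were no filter (adjusted p = 0.112), quantile normalization (adjusted p = 0.064), no trend (adjusted p = 0.0716), only these diets fitted (adjusted p = 0.0657) and both chow 2 and 4 left out (adjusted p = 0.0994). On HFWD the log2 difference was 0.56 (SE 0.49, adjusted p = 0.644).

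Elovl2, which makes the long precursors of docosahexaenoic acid and is expressed in liver, lies on chromosome 13 (ENSMUSG00000021364, 41277864 to 41315774, minus strand). Its row had 2300, 4104, 2175, 2266 and 3802 units in the HFWD+sugar livers, 3059, 2577, 3695, 2989 and 2955 in the HFWD livers, and 1691, 2515, 2259 and 2356 in the chow livers. All HFWD livers lay above all chow livers, while 3 HFWD+sugar livers lay within the range of chow and 2 above the highest HFWD liver. It did not pass on HFWD+sugar (log2 difference 0.37, interval -0.02 to 0.75, adjusted p = 0.224) or on HFWD (log2 difference 0.48, interval 0.09 to 0.86, adjusted p = 0.185).

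The row of Sycp2l, 8.02 kb from Elovl2 on the opposite strand, had the other direction. It had 13678, 20537, 15233, 13322 and 18205 units in the HFWD+sugar livers, 16552, 14554, 21510, 17662 and 16461 in the HFWD livers, and 29886, 33161, 33631 and 31038 in the chow livers. The highest Western diet liver lay well below the lowest chow liver. Sycp2l, known as a gene of the germ line in mouse, fell 2.00-fold on HFWD+sugar (log2 difference -0.998, SE 0.13, adjusted p = 0.00014) and 1.85-fold on HFWD (log2 difference -0.89, SE 0.13, adjusted p = 0.00063). The Elovl2 row was 17.8% ± 2.66 of the Sycp2l row on HFWD+sugar (SD, n = 5), 17.6% ± 0.619 on HFWD (SD, n = 5) and 6.89% ± 0.917 on chow (SD, n = 4). No Western diet liver overlapped the chow livers in this share, which was not tested.

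Elovl3, an elongase of saturated and monounsaturated chains known in mouse liver for its circadian and sex-dependent expression, lies on chromosome 19 (ENSMUSG00000038754, 46206387 to 46210184, plus strand). Its row had 116, 259, 103, 77.2 and 36.5 units in the HFWD+sugar livers, 78.6, 133, 15.4, 24.1 and 15.8 in the HFWD livers, and 71.4, 71.8, 49.7 and 17.5 in the chow livers. The spread within a diet was wider than the differences between diets, and it did not pass (log2 difference 1.07, interval -0.29 to 2.42, adjusted p = 0.323 on HFWD+sugar, and -0.33, interval -1.68 to 1.02, adjusted p = 0.859 on HFWD). The row of Pitx3, whose gene overlaps the end of Elovl3 on the opposite strand, varied as widely, with 16682, 27497, 20743, 9533 and 3775 units on HFWD+sugar, 10167, 19419, 4676, 4045 and 4047 on HFWD, and 14624, 12006, 14851 and 7621 on chow. HFWD+sugar 5 and chow 4 were the lowest of their groups in both rows, and HFWD+sugar 2 and HFWD 2 the highest.

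**Figure D4:**
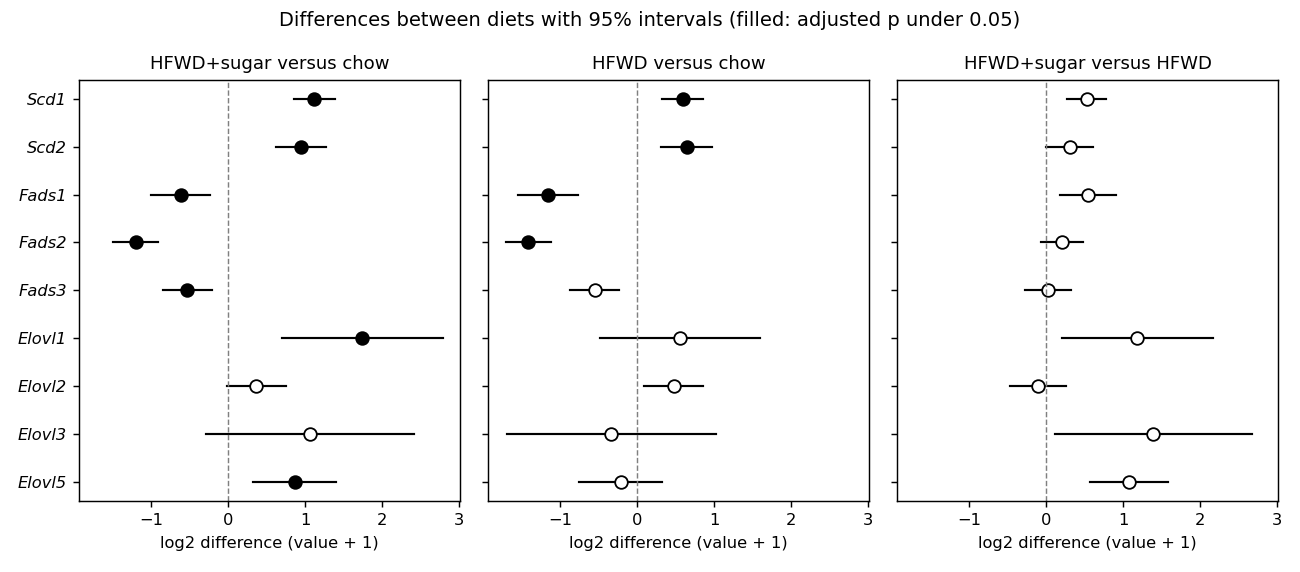
Log2 differences of the 9 rows (value + 1) with 95% intervals for HFWD+sugar against chow, HFWD against chow and HFWD+sugar against HFWD; filled points passed the adjusted threshold. The Scd rows lie right of 0 and the Fads rows left of 0 against chow, and no point is filled between the 2 Western diets.

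The comparison of HFWD+sugar with HFWD asked what liquid sugar added. None of the 9 rows passed, and of all 14770 rows 0 (0%) passed in limma, with 1273 at an unadjusted p under 0.05. One row passed when HFWD 1 was left out, and it was not a member. The Scd1 row was 1.44-fold higher on HFWD+sugar (log2 difference 0.53, interval 0.27 to 0.78, adjusted p = 0.46). The Elovl5 row was 2.11-fold higher (log2 difference 1.08, interval 0.57 to 1.58, adjusted p = 0.46). For these 2 rows the livers of the diets did not overlap, which held for 2.2% of all rows. The Fads1 row differed by 0.54 on the log2 scale (interval 0.18 to 0.90, adjusted p = 0.525) and Elovl1 by 1.19 (interval 0.21 to 2.17, adjusted p = 0.56). Elovl3 differed by 1.40 (interval 0.12 to 2.67, adjusted p = 0.568), and groups overlapped for each of these rows. The intervals are not adjusted for the number of rows tested. The intervals of Scd2 (0.00 to 0.62), Fads2 (-0.07 to 0.49), Fads3 (-0.27 to 0.32) and Elovl2 (-0.47 to 0.26) reached 0 or beyond.

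The counts for genes that act with these enzymes stand beside 9.05% of all rows passing on HFWD+sugar and 3.38% on HFWD. Among other genes of the elongation cycle and of related desaturases, 11 of 20 listed names were tested, 0 passed on HFWD, and on HFWD+sugar 0 rose and 1 fell (median log2 difference 0.35). That one was Tecr, the enoyl reductase that closes the elongation cycle, at 1146 ± 93.9 units on HFWD+sugar (SD, n = 5) and 1609 ± 190 on chow (SD, n = 4; log2 difference -0.48, adjusted p = 0.0095). Of 6 tested genes that feed electrons to desaturases through cytochrome b5, 0 passed on either diet. Of 20 regulators, among them Srebf1, Nr1h3 and Mlxipl, 0 passed on HFWD and 1 rose on HFWD+sugar, namely Pparg (16.3 ± 5.39 units on HFWD+sugar and 4.76 ± 3.58 on chow; SD, n = 5 and 4; adjusted p = 0.0255), a level of a few reads.

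Of 11 genes of fatty acid synthesis, 1 fell on HFWD and 0 passed on HFWD+sugar. It was Acly, the ATP citrate lyase that supplies acetyl-CoA (86.3 ± 16.8 units on HFWD and 173 ± 37.5 on chow; SD, n = 5 and 4; adjusted p = 0.0222). Of 18 tested genes of fatty acid activation and phospholipid remodelling, 1 rose on HFWD+sugar, the acyl-CoA synthetase Acsl1 (1415 ± 306 units on HFWD+sugar and 903 ± 227 on chow; SD, n = 5 and 4; adjusted p = 0.0483), and 0 passed on HFWD. Of 10 genes of the peroxisomal shortening that completes docosahexaenoic acid, 2 rose on HFWD+sugar and 0 passed on HFWD. They were the thiolase Acaa1b (756 ± 125 units on HFWD+sugar and 314 ± 43.8 on chow; SD, n = 5 and 4; adjusted p = 0.000323) and the bifunctional enzyme Hsd17b4 (495 ± 75.5 and 266 ± 38.9; SD, n = 5 and 4; adjusted p = 0.00272). Between the 2 Western diets 0 of the tested genes of these 6 lists passed.

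On HFWD+sugar against chow, where 9.05% of all rows passed, 2 of 10 hepatocyte markers fell (Cps1 and Tat), 1 of 7 Kupffer cell markers rose (Cd5l), 1 of 8 stellate cell markers rose (Col3a1), 1 of 2 tested adipocyte markers rose (Cfd) and 1 of 4 tested lymphocyte markers fell (Cd8a), while 0 of 6 endothelial and 0 of 4 tested cholangiocyte markers passed. The Cd8a row averaged 14578 units on HFWD+sugar and 17703 on chow, a level far above that known of the gene in whole liver. On HFWD, where 3.38% of all rows passed, only Cps1 (lower) and Cfd (higher) passed among these 8 lists. No neutrophil marker was high enough to test. The part of these shifts in the results above was not tested.

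The rows most like the members were sought by Pearson's r of log2(value + 1) over the 14 livers, among the 6220 tested rows with a mean of at least 100 units. These r values include the difference between diets and are given as a description. The Scd1 row was most like the peroxisomal thiolase Acaa1b (r = 0.962), followed by Hfe2 (r = 0.951). Rows much like the Scd2 row were Alpk3 (r = 0.928) and Scd1 (r = 0.92). Fads1 had Fads2 (r = 0.84) and Acly (r = 0.836) first and then Lrrc19 (r = 0.823). Fads2 had Cetn2 (r = 0.955), Wdr37 (r = 0.948) and BC048609 (r = 0.948). Fads3 had Lyrm4 (r = 0.852), Cetn2 (r = 0.848) and Rnf146 (r = 0.834). Elovl5 was most like Creg1 (r = 0.92), D17Wsu92e (r = 0.92) and Gm20547 (r = 0.914), and Elovl1 like Cdc23 (r = 0.941), Ptpre (r = 0.935) and Vps36 (r = 0.909).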

How the data were processed

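Liver RNA was depleted of ribosomal RNA and sequenced in 14 libraries, per the labels' protocols. The submitters' processing notes name FastQC, TopHat2 2.0, SAMtools and the build mm9; for the counter, its strand setting and the scaling, no source used here gives a name. The deposited file holds a normalized signal per gene, made by the authors on a linear scale with a lowest value of 1. Coordinates of all 9 genes, and of 22438 of 22850 rows, matched the mm9 GENCODE annotation. Of low values, 53.9% to 63.9% were whole multiples of 1 read (tolerance 0.02), so a count test was not run.

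Rows above the lowest value in at least 4 libraries were fitted with limma 3.58.1 in R 4.3.3 (3 group means, eBayes with trend, 2-sided tests) on log2(value + 1); such folds understate changes of low rows. Within-group pairs of libraries differed by a chi-square of 7.49 to 66.9 per degree of freedom, so no pair agreed within sampling noise. All 9 members were named whatever their result, with the highest row within 200 kb on each strand, the 2 called genes of smallest p in each list, and the 3 most similar rows of each called member; a few of these rows are not reported here. Rows outside that rule (Fen1, Fth1, Scd3, Scd4 and Cdc20) were added after their values were seen. The highest same-strand rows outside the members were Ndufb8, Wnt8b, Best1, 1810006K21Rik, Hyi, Mak, Pprc1 and Ick. Of these only Ndufb8, near Scd1, passed, lower on HFWD+sugar against chow (log2 difference -0.37, adjusted p = 0.0146 in limma). The members and lists were chosen with earlier results of these data known.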

Additional observations from a re-analysis of the deposited data

Results flagged for a closer look

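Among 66 sets of 4 or 5 livers (the 9 rows and the neighbours reported, on each diet), 2 had a liver far from the rest of its group, where about 1 in 20 is expected by chance. Both were in chow 2 and neither was a desaturase or elongase row. The Ick row, the highest same-strand row near Elovl5, had 5929 units in chow 2 and 7576 to 7661 in the other chow livers. The Cdc20 row, which overlaps Elovl1 on the opposite strand, had 2.65 units in chow 2, the worth of 1 read, and 1 in the others.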

How the results depend on the processing

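Of 618 results of single members under alternatives, 535 kept their direction and side of the threshold. Of the rest, 62 lost and 6 gained a call, and 15 reversed. The cause was not tested. Only a called result could lose its call, and of the 9 members 4 were called on HFWD, 7 on HFWD+sugar and 0 between the Western diets. Direction could not change under every alternative. A member's log2 difference stayed the same with no filter, without a trend and with only the 2 diets fitted. Leaving out a liver of the diet not compared did not change it either. Those alternatives could move only the adjusted p, so many of the 535 could not have reversed. The reversals include those from reading the opposite-strand row, given below. On HFWD against chow, the count of rows passing (499) was 309 with no filter, 275 with median centring, 1021 with array weights, 246 without a trend, 240 with only the 2 diets fitted, 916 without chow 2 and 4, and 255 to 1051 without single livers. Members passing (4) were 2 with no filter, 2 with only the 2 diets, and 2 to 5 without single livers. On HFWD+sugar against chow, 1336 became 774, 2174 (array weights), 745 (no trend), 745 (2 diets), and 674 to 1768 without single livers; members passing (7) were 2 with no filter, 4 with quantile normalization, 3 without a trend, 4 with only the 2 diets, and 3 to 7 without single livers. Between the Western diets the count was 0 to 1, with 1 row without HFWD 1. In this last comparison the Fads3 log2 difference of 0.02 was -0.1213 with median centring and -0.0602 to 0.0979 without single livers. The HFWD difference of Elovl5 was 0.1101 without chow 2 and 4, and -0.3718 to 0.0443 without single livers. Reading the highest opposite-strand row in place of the member gave, on HFWD, 0.2481 for Fads1 and Fads3, -0.8905 for Elovl2 and 0.1014 for Elovl5; on HFWD+sugar, 0.3015 for Fads1 and Fads3 and -0.9981 for Elovl2; between the Western diets, -0.0268 for Elovl5. This alternative was not run for Elovl1. No paired analysis was possible because the labels give no replicate number shared between diets. Depth limits Elovl1 and Elovl3, at 2 and 2.55 reads in the shallowest chow liver.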
